A study of Mus musculus with 27 samples.

Results

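The collagen genes were examined in liver, omental adipose tissue and skeletal muscle of *Mlx*KO mice. The members were all genes of the deposited expression table whose symbol reads Col, a type number, a and a chain number, which gave 44 of 36333 genes. Every mouse was male and came from a cross of Mlx Flox/Flox mice with a B6.129 strain in which the ubiquitous Gt(ROSA)26Sor locus drives cre/ERT2, so that tamoxifen leads to deletion of *Mlx* throughout the body. The extent differed between tissues: by the study's qRT-PCR, skeletal muscle kept more *Mlx* transcript, relative to WT, than liver or fat did. All had received 5 daily injections of tamoxifen (75 mg/kg) in corn oil around weaning, at 15 g or more. Tissues were taken at 5 months (4 mice, each of which gave all 3 tissues) and at 20 months (5 samples per tissue, with names of their own in each tissue), 27 samples in all. Libraries are named as submitted, with X5 for the young and X18 for the old mice, then L, F or S for liver, fat or skeletal muscle and the number of the mouse. The age label of the old mice reads 20 month, while the X18 in their library names may stand for an age of 18 months. The study's supplement also lists animals of 18 months whose numbers end as those of the old libraries do. The old age is therefore uncertain, and the label was used. All groups share this genotype and treatment, and tissues of WT mice were not analysed here, so every comparison is of old with young *Mlx*KO tissue or of 1 tissue with another.

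Collagens are secreted proteins of 3 chains wound into a triple helix. The fibrillar types I, III and V form the cables of connective tissue, with type V chains setting fibril width, and types XI and XXVII serve mainly in cartilage. Type IV forms the sheet of the basement membrane, most widely from the chains of *Col4a1* and *Col4a2* and, in kidney and a few other epithelia, from those of *Col4a3*, *Col4a4* and *Col4a5*. Type VI forms beaded filaments around cells, types XII, XIV and XVI coat fibril surfaces, and types XV and XVIII carry heparan or chondroitin sulfate chains at the edge of basement membranes. In liver, stellate cells and portal fibroblasts are the best known makers of fibrillar collagen, and in fat and muscle the fibroblasts between the cells are. The 44 members comprised 11 fibrillar chains, 6 of type IV, 6 of type VI, 3 of types VII, XV and XVIII, 9 fibril-associated chains, 3 of the network types VIII and X, 4 transmembrane collagens and 2 others.

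The start regions of 4 of the most abundant chains are shown because these chains had the highest levels per kb in young fat and muscle and because *Col4a1* and *Col4a2* start on opposite strands with 20 bases between their starts. Each window holds the 250 bases before and 50 bases from the transcription start, read 5′ to 3′ on the gene's own strand, from RefSeq on GRCm38.p6. Capitals mark CCAAT or its reverse complement ATTGG, a motif of promoters of many housekeeping and matrix genes.
Col1a2, chr6:4505368-4505667, plus strand: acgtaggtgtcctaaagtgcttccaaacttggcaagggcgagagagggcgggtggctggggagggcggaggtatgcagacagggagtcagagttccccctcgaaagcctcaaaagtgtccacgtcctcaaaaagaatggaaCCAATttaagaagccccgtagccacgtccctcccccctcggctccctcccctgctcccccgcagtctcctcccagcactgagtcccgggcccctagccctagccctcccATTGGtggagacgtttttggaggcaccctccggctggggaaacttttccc
Col3a1, chr1:45311288-45311587, plus strand: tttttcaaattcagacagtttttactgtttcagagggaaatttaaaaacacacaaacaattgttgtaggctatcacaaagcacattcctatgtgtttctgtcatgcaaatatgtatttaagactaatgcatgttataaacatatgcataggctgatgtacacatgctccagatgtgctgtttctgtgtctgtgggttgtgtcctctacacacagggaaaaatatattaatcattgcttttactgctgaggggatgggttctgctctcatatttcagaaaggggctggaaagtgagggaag
Col4a1, chr8:11312777-11313076, minus strand: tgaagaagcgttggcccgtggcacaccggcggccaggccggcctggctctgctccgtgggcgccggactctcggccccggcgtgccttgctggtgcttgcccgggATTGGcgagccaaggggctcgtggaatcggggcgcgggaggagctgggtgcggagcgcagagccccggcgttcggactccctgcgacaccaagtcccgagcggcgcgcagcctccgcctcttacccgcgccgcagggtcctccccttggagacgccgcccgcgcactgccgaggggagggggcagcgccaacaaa
Col4a2, chr8:11312555-11312854, plus strand: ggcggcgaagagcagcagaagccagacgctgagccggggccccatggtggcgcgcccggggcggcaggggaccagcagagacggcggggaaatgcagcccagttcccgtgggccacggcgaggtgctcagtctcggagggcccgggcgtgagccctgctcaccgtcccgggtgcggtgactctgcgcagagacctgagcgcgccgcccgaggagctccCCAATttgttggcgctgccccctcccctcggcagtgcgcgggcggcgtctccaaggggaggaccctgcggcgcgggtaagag
The motif stood in the windows of *Col1a2*, *Col4a1* and *Col4a2* and not in that of *Col3a1*. Of 38 windows of 35 collagens, 34.2% held it on either strand, against 37.4% of all 32851 windows. The windows of *Col4a1* and *Col4a2* share 78 bases of chromosome 8. A match of letters is a description and not a binding site.

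The deposited values are reads per gene scaled within each sample, so they have no unit beyond that scale. Samples held 14384695 to 25673919 reads on genes, and 1 read was worth 0.0234 to 0.0806. Counting error is therefore small for values above 10 and large for values near 1. *Mlx* itself, whose reads may come from exons outside the deleted segment or from undeleted alleles, which values per gene cannot tell apart, ranged from 18.8 to 32.4 in livers, from 8.19 to 13.9 in fat and from 7.04 to 11.6 in muscles, and did not pass the test between ages in any of them (limma adjusted p = 0.168, 0.349 and 0.503). Tissue markers fit the labels: *Alb* was 26970 to 125320 in liver, *Adipoq* 532 to 1182 in adipose tissue, and 5 myofibre genes summed to 122100 to 157700 in muscle. Some libraries stood apart. The old liver X18L74 had the lowest *Alb*. Among the fat samples, *Epcam*, an epithelial surface protein, was 13.3, 27.9 and 36.8 in the young X5F4299, X5F5001 and X5F5239 and 20.96 and 5.70 in the old X18F36 and X18F39, against 0.0779 to 2.18 in the other 4. In muscle, the bone gene *Ibsp* was 14.8 and 4.53 in the young X5S5001 and X5S5239 and at most 2.94 in the other 7, and the skin keratin *Krt5* was 43.4 in the old X18S60 and 0 in the other 8.

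Collagens took more of the transcriptome in fat than in the other tissues. They held 0.0942% to 0.117% of reads in liver at 5 months and 0.117% to 0.165% at 20 months, 0.601% to 1.21% and 0.654% to 1.11% in adipose tissue, and 0.0994% to 0.173% and 0.0599% to 0.0811% in skeletal muscle. In muscle the ages did not overlap.

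**Figure D1:**
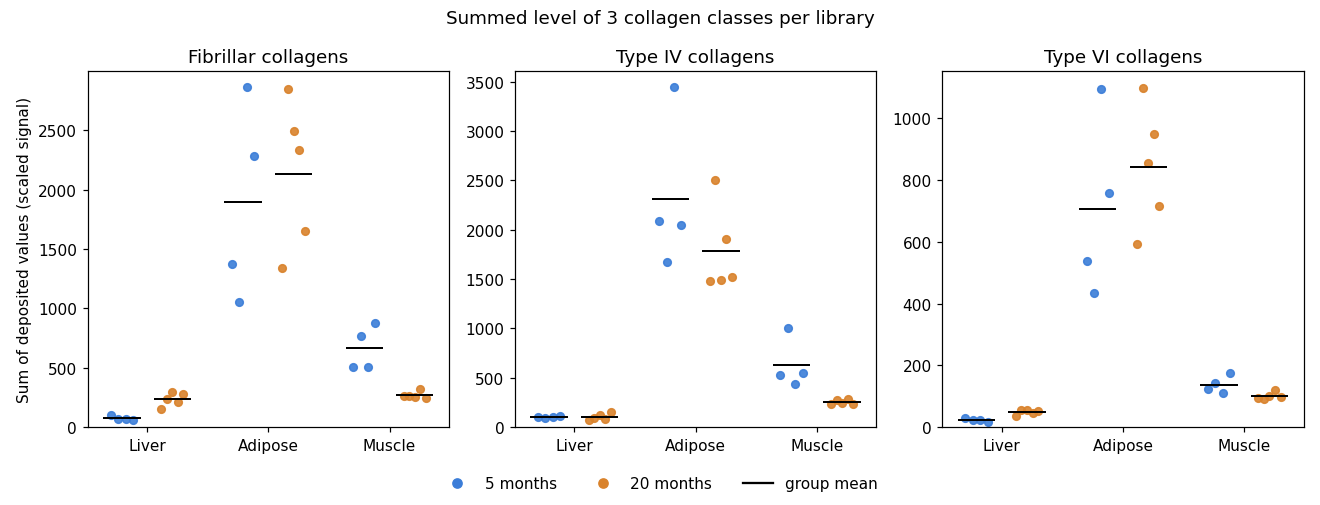
Sum of the deposited values (scaled signal, linear axis from 0) of the fibrillar, type IV and type VI collagens in each library, by tissue and age; points are libraries and black lines group means. Fibrillar sums were 62.8 to 97.2 in young and 152 to 296 in old livers, and 505 to 878 in young and 246 to 323 in old muscles, while those of adipose tissue overlapped.

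In liver, fibrillar and type VI collagens rose with age, led by *Col5a2*, while the most abundant collagen of the organ, *Col18a1*, and the main basement membrane chains did not pass the test. Of 44 collagens, 23 reached a value of 1 in 4 or more of the 9 livers and were tested. Of these, 11 were higher at 20 months (47.8% of the members, against 10% of the 12654 genes tested) and 1 was lower (4.35%, against 9.79%), 52.2% in all against 19.8%, by limma with an adjusted p under 0.05. *Col4a3* and *Col4a4* entered the test only through the old livers, since all 4 young livers lay under 1. *Col4a4* is 1 of the 11 that were higher, and since a gene that enters in this way had to differ, its call is not to be read as part of that count. The median log2 change was 0.64 over the 23 collagens and 0.00 over all genes tested, and the ages did not overlap for 11 of the 23 (background 19.1%). *Col4a3* and *Col4a4* are included in this median and in the shares above, and *Col4a4* is also 1 of the 11 without overlap.

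Among the fibrillar chains, 6 of 8 tested rose. *Col5a2* (chromosome 1, 45374331 to 45503282 in GRCm38.p6), a chain of type V, was 10.1, 7.64, 6.27 and 5.44 in the young livers and 44.2, 63.1, 55.2, 81.8 and 35.1 in the old ones. Every old liver lay far above every young one, and the mean went from 7.37 ± 2.05 (SD, n = 4) to 55.9 ± 18 (SD, n = 5), a 7.58-fold difference (log2 change 2.74 with standard error 0.236, limma adjusted p = 0.000601). *Col5a3*, the third type V chain, was 26.7, 8.07, 10.98 and 18.2 at 5 months and 39.1, 47.3, 72.5, 38.4 and 102 at 20 months, again without overlap (log2 change 1.87, limma adjusted p = 0.0107). The remaining type V chain, *Col5a1*, was 8.72 to 15.97 and 10.2 to 16.6 and did not pass (log2 change 0.30, limma adjusted p = 0.287), so the 3 chains of the same type did not have the same result.

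The chains of types I and III, the bulk of scar and capsule collagen, rose by 2.30- to 3.45-fold in their means. *Col1a1* (chromosome 11, 94936224 to 94953042) was 8.40, 5.82, 7.27 and 5.52 in young and 12.2, 26.0, 34.9, 18.6 and 24.8 in old livers, from 6.75 ± 1.34 (SD, n = 4) to 23.3 ± 8.52 (SD, n = 5) (log2 change 1.59, standard error 0.253, limma adjusted p = 0.00775). *Col3a1* (chromosome 1, 45311538 to 45349706), whose product is interwoven with type I in soft organs, was 14.1, 10.8, 11.8 and 9.36 against 18.1, 43.0, 54.3, 27.8 and 49.1 (log2 change 1.57, limma adjusted p = 0.0089). Neither gene overlapped between the ages, and the old livers spread more widely than the young, with X18L16 the lowest and X18L18 the highest of the old for both. *Col1a2*, the partner chain of *Col1a1*, was 15.1, 14.4, 13.5 and 7.92 against 15.1, 33.2, 43.9, 21.2 and 32.8, with the old X18L16 as low as a young liver (log2 change 1.09, limma adjusted p = 0.0261). Its call was lost without the old X18L17 or X18L18 or the young X5L5001 or X5L5239 (limma adjusted p = 0.0543 to 0.0639). Per kb of transcript, the median ratio of *Col1a1* to *Col1a2* was 0.494 in young and 0.719 in old livers, and the ages did not overlap (0.364 to 0.629 and 0.680 to 0.788). *Col27a1*, a fibrillar chain best known from cartilage, was 4.52, 4.66, 5.35 and 6.56 against 10.7, 10.8, 15.6, 11.5 and 17.04 (log2 change 1.16, limma adjusted p = 0.00626).

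All 3 type VI chains tested in liver rose, each without overlap. *Col6a1* was 12.9, 8.80, 9.05 and 7.28 at 5 months and 15.3, 21.4, 23.2, 16.02 and 22.4 at 20 months (2.07-fold, log2 change 0.98, limma adjusted p = 0.00912). *Col6a2* was 7.57, 5.96, 5.28 and 3.84 against 9.52, 14.9, 16.3, 13.3 and 12.7 (log2 change 1.12, limma adjusted p = 0.00863). *Col6a3* was 8.02, 7.49, 7.49 and 5.44 against 11.1, 17.2, 14.4, 15.0 and 16.3 (log2 change 0.96, limma adjusted p = 0.00775). The products of the 3 chains assemble into a single heterotrimer.

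Basement membrane collagens of liver gave another picture. *Col4a1* (chromosome 8, 11198423 to 11312889) was 59.1, 60.9, 59.4 and 62.8 in young and 44.4, 52.0, 79.0, 56.1 and 109 in old livers, with old samples on either side of the narrow young range (log2 change 0.09, 95% interval -0.39 to 0.58, limma adjusted p = 0.789). *Col4a2* (chromosome 8, 11312805 to 11449287) was 31.0, 30.7, 41.1 and 45.9 against 24.3, 28.1, 33.7, 23.1 and 28.6 (log2 change -0.41, limma adjusted p = 0.0779). *Col18a1* (chromosome 10, 77052178 to 77166530), whose C-terminal fragment is endostatin and which hepatocytes make, was 1247, 1055, 1273 and 1304 against 1105, 1427, 1448, 1353 and 840.2 (log2 change -0.01, 95% interval -0.41 to 0.39, limma adjusted p = 0.983). The lowest of these, X18L74, was also the liver with the lowest *Alb*. *Col15a1* was 3.05, 0.800, 4.06 and 2.72 against 3.51, 4.06, 5.20, 6.70 and 4.81 (log2 change 0.75, limma adjusted p = 0.0790). *Col4a4* passed at low values (0.364 to 0.955 against 1.22 to 2.31, log2 change 0.64, limma adjusted p = 0.0363), and its call was lost without any 1 of 8 livers, all but the old X18L16, with a limma adjusted p of up to 0.102.

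The other 2 called collagens of liver moved in opposite directions. *Col14a1*, which decorates fibril surfaces, was 41.9 to 53.1 in young and 53.4 to 82.1 in old livers (log2 change 0.54, limma adjusted p = 0.0261), and its call was lost without the old X18L17 or X18L18 or the young X5L5238 or X5L5239 (limma adjusted p = 0.0586 to 0.0688). *Col13a1*, a transmembrane collagen of cell contacts and the only collagen that fell in liver, was 7.32, 9.75, 5.56 and 8.16 in young and 2.29, 2.81, 3.71, 2.78 and 0.351 in old livers (3.22-fold lower, log2 change -1.45, limma adjusted p = 0.0154).

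Some markers of other cells also differed between the ages, and others did not. Of 6 hepatic stellate cell markers, 2 were higher at 20 months (*Lrat*, log2 change 1.17, and *Pdgfrb*, 0.68). *Colec11* (0.53), *Reln* (0.24), *Ecm1* (-0.26) and *Hgf* (-0.28) were not called. The sum of the 6 was 282 to 413 in young and 336 to 426 in old livers. The sum of 6 fibroblast markers was 40.5 to 65.5 and 51.5 to 67.2, with 0 of 3 tested called (limma, also 0 at an unadjusted p under 0.05). The sum of 5 mesothelial markers was 3.78 to 8.78 and 8.12 to 21.5, with 1 of 4 tested higher, and that of 5 macrophage markers 132 to 201.2 and 174 to 652, with 2 of 5 higher. The sum of 5 hepatocyte markers was 98820 to 154900 and 41000 to 93080, with *Cps1* lower (log2 change -2.14). Of 4 B cell markers tested, 3 were higher, and of 6 endothelial markers 1 was lower (*Kdr*, -0.49). In bulk tissue, more cells of a type and more RNA per cell cannot be told apart. With the summed stellate markers as a covariate, an alternative chosen after seeing the data, limma called 12 collagens higher and *Col5a2* had a log2 change of 2.66 (limma adjusted p = 0.00169). That sum overlapped between the ages, although 2 of its 6 markers rose, so it could take up little of a difference with age. The fit therefore cannot tell the part of stellate cells, and the part of the other cell types was not tested. Leaving out each liver in turn gave 8 to 11 collagens higher, and *Col1a1*, *Col3a1*, *Col5a2*, *Col5a3*, *Col6a1*, *Col6a2*, *Col6a3*, *Col27a1* and *Col13a1* remained called in all 9 of these fits.

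**Figure D2:**
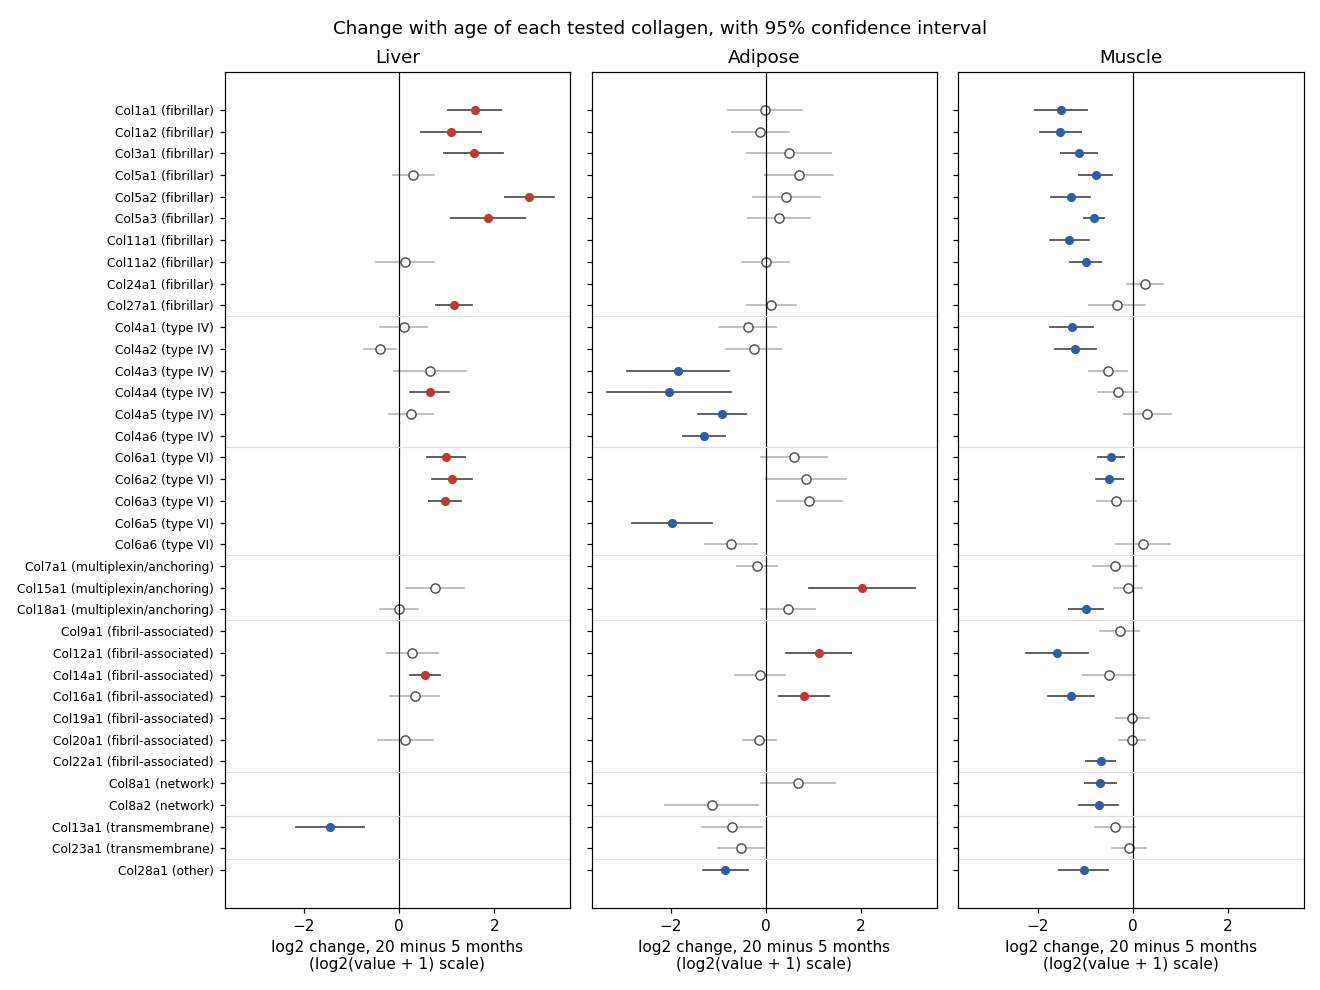
Change with age of each collagen tested, in log2(value + 1) units with 95% confidence intervals, by tissue; filled points passed limma's adjusted p of 0.05 (red higher, blue lower at 20 months), open points did not. In liver 11 points are red and 1 blue, in adipose tissue 3 red and 6 blue, and in skeletal muscle 19 blue and 0 red.

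In skeletal muscle, collagens of most classes were among those lower at 20 months, with 8 of 10 fibrillar, 2 of 5 type IV, 2 of 4 type VI, 3 of 7 fibril-associated and both network chains tested, while 0 of 2 transmembrane chains were. Of 34 tested, 19 were lower at 20 months (55.9% of the members, against 10.1% of the 12720 genes tested, of which 19.3% were called in either direction). None was higher, by limma at the adjusted threshold or at an unadjusted p under 0.05, and edgeR and DESeq2 also called 0 higher (background 9.13%). The median log2 change was -0.60 over the 34 collagens and 0.02 over all genes tested, and the ages did not overlap for 16 of them (47.1%, background 17.3%).

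Of the fibrillar chains, 8 of 10 fell. *Col1a1* was 94.8, 177, 102 and 207 in young and 40.03, 52.1, 44.2, 70.9 and 37.1 in old muscles, from 145 ± 55.6 (SD, n = 4) to 48.9 ± 13.5 (SD, n = 5), 2.98-fold lower (log2 change -1.51, standard error 0.246, limma adjusted p = 0.0038). *Col1a2* was 143, 221, 149 and 281 against 64.0, 65.6, 59.8, 87.8 and 56.2 (log2 change -1.52, limma adjusted p = 0.00151). *Col3a1* was 108, 172, 97.8 and 187 against 63.0, 56.5, 62.1, 67.8 and 58.2 (log2 change -1.13, limma adjusted p = 0.00315). In these 3 genes no old muscle reached a young one, and the 2 highest young values were always X5S5001 and X5S5239, the libraries that also held *Ibsp*.

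The type V chains fell together in muscle, with *Col5a3* the most uniform within each age. *Col5a3* was 65.8, 54.0, 61.1 and 64.5 in young and 33.8, 37.4, 34.9, 30.4 and 35.6 in old muscles (1.78-fold lower, log2 change -0.82, standard error 0.0951, limma adjusted p = 0.000983). *Col5a2* was 43.4, 65.9, 32.5 and 47.9 against 20.7, 18.2, 13.2, 21.5 and 17.3 (log2 change -1.31, limma adjusted p = 0.00245), and *Col5a1* fell as well (log2 change -0.78, limma adjusted p = 0.00906). The type XI chains, partners of type II in cartilage that are also found at low level in muscle, gave *Col11a1* 3.69, 4.595, 3.84 and 4.74 against 1.83, 0.532, 0.796, 1.396 and 0.998 (log2 change -1.33, limma adjusted p = 0.00221). *Col11a2* was 10.6, 13.2, 16.2 and 18.4 against 7.24, 6.85, 6.08, 7.35 and 6.06 (log2 change -0.99, limma adjusted p = 0.00298). In the young X5S4299 and X5S5238, which had *Ibsp* under 4, *Col11a1* was 3.69 and 3.84, against at most 1.83 in the old muscles. The part of bone or cartilage in these values was not tested.

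The basement membrane of each muscle fibre and capillary rests on type IV, whose 2 major chains fell side by side. *Col4a1* was 309, 585, 233 and 314 in young and 128, 151, 131, 158 and 126 in old muscles, from 360.1 ± 154 (SD, n = 4) to 139 ± 14.5 (SD, n = 5) (log2 change -1.29, standard error 0.209, limma adjusted p = 0.00375). *Col4a2*, which shares its start region as printed above, was 206, 417, 189 and 222 against 94.9, 119, 106, 116 and 93.5 (log2 change -1.21, limma adjusted p = 0.00382). Both were highest in X5S5001, and the ratio of *Col4a1* to *Col4a2* per kb was 1.2 to 1.46 in young and 1.205 to 1.33 in old muscles. The minor chains did not pass: *Col4a3*, *Col4a4* and *Col4a5* had log2 changes of -0.52, -0.32 and 0.31 (limma adjusted p = 0.0668, 0.230 and 0.345). *Col18a1* was 14.1, 20.6, 16.4 and 15.0 against 5.998, 8.18, 8.25, 10.8 and 6.56 (log2 change -0.98, limma adjusted p = 0.00421), whereas its relative *Col15a1*, at 19.7, 21.2, 18.8 and 25.1 against 17.3, 16.8, 20.0, 25.4 and 19.6, did not pass (log2 change -0.10, 95% interval -0.39 to 0.19, limma adjusted p = 0.619).

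Among the fibril-associated chains of muscle, 3 of 7 fell. *Col12a1*, abundant in tendon and in the sheaths around muscle, went from 12.5 to 53.5 in young to 6.37 to 8.38 in old muscles (log2 change -1.59, limma adjusted p = 0.00667). *Col16a1* (log2 change -1.30, limma adjusted p = 0.00425) and *Col22a1*, a collagen of the junction between muscle and tendon (36.3 to 37.96 against 17.1 to 29.3, log2 change -0.68, limma adjusted p = 0.00995), fell too. The network chains *Col8a1* (log2 change -0.68) and *Col8a2* (-0.72) and *Col28a1*, a collagen known from peripheral nerve (-1.03), were lower, with limma adjusted p of 0.0124, 0.0247 and 0.0139. Of 4 type VI chains tested, 2 fell: *Col6a1* was 49.7, 56.6, 47.5 and 67.9 against 36.6, 35.6, 40.7, 47.8 and 39.3 (log2 change -0.46, limma adjusted p = 0.0276), and *Col6a2* had a log2 change of -0.49 (adjusted p = 0.0256). *Col6a3* (-0.35, limma adjusted p = 0.191) and *Col6a6* (0.21, adjusted p = 0.59) did not pass. The calls of *Col6a1*, *Col6a2* and *Col8a2* were each lost in 6, 4 and 5 of the 9 fits that left out 1 muscle (limma adjusted p up to 0.0635, 0.0639 and 0.0599), among them those without the old X18S57, X18S58 or X18S60 or the young X5S5239 for all 3, and also without X18S56 or X5S5001 for *Col6a1* and without X5S4299 for *Col8a2*. The other 16 calls held in all 9 fits. With all 27 samples in 1 fit, the muscle calls of *Col5a3*, *Col6a1*, *Col6a2*, *Col8a1* and *Col8a2* were lost.

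Some markers of several other cell types were also lower in the old muscles. The sum of 6 fibroblast markers was 1413 to 1735 in young and 768 to 1135 in old muscles, with 4 of 6 lower (*Mfap5*, log2 change -0.94, *Gsn*, -0.86, *Pi16*, -0.84, and *Pdgfra*, -0.67). The sum of 5 tendon markers was 306 to 430.4 and 89.4 to 193, with *Comp* (-1.44) and *Thbs4* (-1.40) lower and *Scx* (0.70) higher. Endothelial markers, 490.5 to 537 and 377 to 488, gave 1 of 6 lower, and myofibre markers 0 of 5 called (limma, also 0 at an unadjusted p under 0.05). The sum of 5 macrophage markers was 114 to 157 in young and 63.3 to 124 in old muscles, with *Cd68* (-1.82) and *Csf1r* (-1.03) lower. Genes of the neuromuscular junction and of denervation summed to 93.0 to 238 and 46.8 to 100.4, with 3 of 6 lower (*Musk*, -1.71, *Runx1*, -1.33, and *Myog*, -1.10), and Schwann cell markers to 89.3 to 146 and 69.8 to 108.5, with 1 of 5 lower (*Sox10*, -0.70). The part of these cell types in the result was not tested, apart from the fibroblast sum. With the summed fibroblast markers as a covariate, limma called 0 collagens higher or lower, and 2 of the 34 had an unadjusted p under 0.05. The log2 changes of *Col1a1* and *Col4a1* were then -0.37 and -0.53, and those of *Col6a2* and *Col8a2* turned to 0.088 and 0.12. Since that sum does not overlap between the ages, its part and that of age cannot be told apart in 9 samples. Without the 2 young muscles that held *Ibsp*, 13 collagens were lower, among them *Col1a1* (log2 change -1.03, limma adjusted p = 0.0150), *Col5a3* (-0.87, adjusted p = 0.00245) and *Col4a2* (-0.90, adjusted p = 0.0029), and *Col28a1*, *Col5a1*, *Col6a1*, *Col6a2*, *Col8a1* and *Col8a2* were not. Both of these alternatives were chosen after seeing the data.

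**Figure D3:**
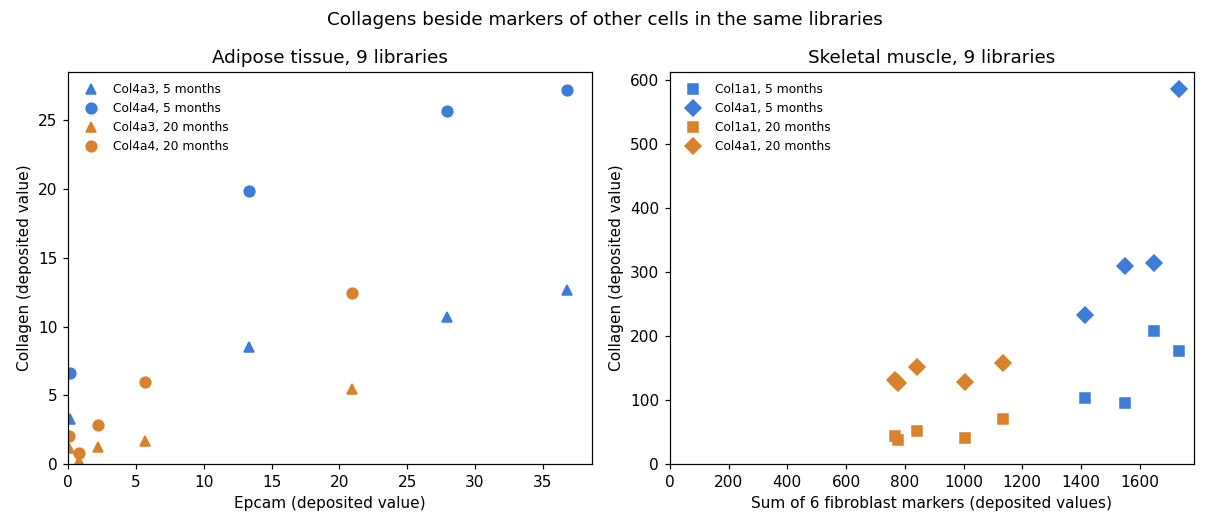
Left, *Col4a3* and *Col4a4* against *Epcam* in the 9 adipose tissue libraries; right, *Col1a1* and *Col4a1* against the sum of 6 fibroblast markers in the 9 muscle libraries (deposited values, linear axes from 0, 1 point per gene and library). *Col4a4* reached 27.2 in the fat library with the highest *Epcam*, 36.8, and the fibroblast sums of young muscles, 1413 to 1735, lay to the right of the old ones, 768 to 1135.

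In adipose tissue, the minor type IV chains and *Col6a5* were lower at 20 months and *Col15a1* was higher, while the fibrillar collagens did not pass. Of 31 tested, 3 were higher (9.68%, against 9.75% of the 14005 genes tested, so no more often than genes at large) and 6 lower (19.4%, against 9.35%). In both directions together 9 of the 31 members were called (background 19.1%). The median log2 change was -0.12 over the 31 collagens and 0.01 over all genes tested, and the ages did not overlap for 7 (22.6%, background 17.4%). These calls depended on single samples: leaving out each in turn gave 0 to 4 collagens higher and 2 to 9 lower, and 2 of the 9 calls, *Col4a6* and *Col6a5*, held in all 9 fits.

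*Col4a6* (chromosome X, 141165403 to 141474095), a chain of smooth muscle and epithelial basement membranes, was 7.24, 9.27, 10.3 and 8.06 in young and 4.27, 1.91, 2.44, 4.03 and 2.45 in old fat (2.89-fold lower, log2 change -1.30, standard error 0.202, limma adjusted p = 0.0102). *Col4a5*, its neighbour on the X chromosome, was 17.8, 19.8, 32.6 and 22.8 against 15.1, 11.95, 8.03, 15.3 and 9.02 (log2 change -0.92, limma adjusted p = 0.0292). The ages did not overlap for either gene. The paired chains *Col4a3* and *Col4a4*, which overlap head to head on chromosome 1, behaved differently. *Col4a3* was 8.49, 10.7, 3.28 and 12.6 against 5.42, 1.17, 0.178, 1.64 and 1.19 (log2 change -1.85, limma adjusted p = 0.0324), and *Col4a4* was 19.9, 25.7, 6.64 and 27.2 against 12.4, 2.06, 0.803, 5.93 and 2.84 (log2 change -2.03, limma adjusted p = 0.0411). Young and old overlapped for both, because the young X5F5238 was low and the old X18F36 high.

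These values moved with epithelial markers. The 3 young samples with high *Col4a3* and *Col4a4* were those with high *Epcam*, and among the old ones the 2 highest, X18F36 and X18F39, had the highest *Epcam*. The sum of 5 simple epithelium markers was 18.5 to 153 in young and 7.98 to 92.9 in old fat, with 0 of 5 called by limma and 1 lower at an unadjusted p under 0.05. Of a list of kidney genes, 3 were tested in fat and 1 was lower, *Podxl* (log2 change -1.43), while *Cdh16* (-2.25) did not pass (limma adjusted p = 0.211). The sum of that list was 150 to 213 in young fat, with X5F5238 of low *Epcam* included, and 23.9 to 129 in old fat. In muscle it was 64.3 to 180 at 5 months and 57.5 to 75.2 at 20 months. The part of kidney tissue was not tested. Within the 4 fat samples with *Epcam* under 5, *Col4a4* was 6.64 in the young sample and 0.803 to 2.84 in the 3 old ones. With the summed epithelial markers as a covariate, the log2 change of *Col4a4* was -0.79 (limma adjusted p = 0.176) and 0 collagens were called higher or lower, where 10 had an unadjusted p under 0.05. Without the 5 samples with *Epcam* of at least 5, which leaves 1 young sample assumed to vary as the old ones do, limma also called 0 in either direction and 9 had an unadjusted p under 0.05. In that fit *Col4a6* had a log2 change of -1.79 (limma adjusted p = 0.134), *Col4a5* -1.67 (0.165) and *Col6a5* -3.31 (0.0810). Both alternatives were chosen after seeing the data. The major chains did not pass in the test of all 9 samples: *Col4a1* was 1231, 978, 2059 and 1174 against 867, 1458, 867, 1056 and 868 (log2 change -0.38, limma adjusted p = 0.293), and *Col4a2* was 808, 632, 1331 and 804 against 579, 1026, 614, 828 and 639.9 (-0.26, adjusted p = 0.467).

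*Col6a5* (chromosome 9, 105856070 to 105962463), a long chain that can take the place of *Col6a3* in type VI, was 173, 166, 339 and 125 in young and 87.0, 30.9, 31.9, 70.6 and 37.6 in old fat, without overlap (3.89-fold lower, log2 change -1.97, standard error 0.375, limma adjusted p = 0.0153). The standard type VI chains did not follow it. *Col6a1* was 168, 133, 347 and 293 against 222, 462, 354, 367 and 291 (log2 change 0.59, limma adjusted p = 0.177), and *Col6a2* and *Col6a3* had log2 changes of 0.85 and 0.91 (limma adjusted p = 0.122 and 0.0618). *Col28a1* was 8.81, 6.83, 10.1 and 6.37 against 2.80, 5.14, 3.93, 5.62 and 2.78, again without overlap (log2 change -0.86, limma adjusted p = 0.0295).

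*Col15a1* (chromosome 4, 47207655 to 47313167), which marks vessel walls and fibroblasts near the basement membrane, was 32.9, 17.3, 90.9 and 94.1 in young and 101, 269, 214, 204 and 232 in old fat (3.47-fold, log2 change 2.02, standard error 0.496, limma adjusted p = 0.0288). The ages did not overlap, though the 2 highest young samples came close to the lowest old one. *Col12a1* was 10.4, 10.6, 24.1 and 12.05 against 36.4, 45.6, 19.4, 36.1 and 21.2 (log2 change 1.11, limma adjusted p = 0.0380), with the young X5F5238 above 2 old samples, and *Col16a1* was 16.8 to 35.3 against 38.5 to 65.9 (log2 change 0.80, limma adjusted p = 0.0448). The calls of *Col12a1*, *Col15a1*, *Col16a1*, *Col4a3*, *Col4a4*, *Col4a5* and *Col28a1* were each lost in 4 to 7 of the 9 fits that left out 1 sample, with a limma adjusted p of up to 0.112. Without X18F37, X18F38, X18F40, X5F4299 or X5F5001, 0 or 1 were higher and 2 or 3 lower, and without X18F39 0 were higher and 4 lower. Without X18F36, 4 were higher and 9 lower.

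Types I and III did not pass the test in fat. *Col1a1* was 272, 203, 597 and 501 in young and 232, 469, 439, 419 and 269 in old fat (log2 change -0.03, 95% interval -0.81 to 0.75, limma adjusted p = 0.959). *Col1a2* was 361, 341, 727 and 587 against 339, 527, 568, 491 and 338 (-0.12, adjusted p = 0.764). *Col3a1* was 420.4, 287, 966 and 768 against 436, 1133, 950.4, 903 and 627 (0.49, adjusted p = 0.368). The young samples formed a low pair, X5F4299 and X5F5001, and a high pair, X5F5238 and X5F5239, in all 3 genes. Per kb, the ratio of *Col3a1* to *Col1a1* was 1.51 to 1.72 in young and 1.997 to 2.57 in old fat, without overlap, a ratio that was not tested. *Col18a1* was 86.1, 68.1, 158 and 132 against 123, 201.4, 133, 159 and 126 (0.47, limma adjusted p = 0.190). Macrophage and B cell markers were higher in old fat, with 2 of 5 and 4 of 4 tested called, and endothelial and smooth muscle markers lower, with 3 of 6 each. The part of these cells in the collagen values was not tested.

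**Figure D4:**
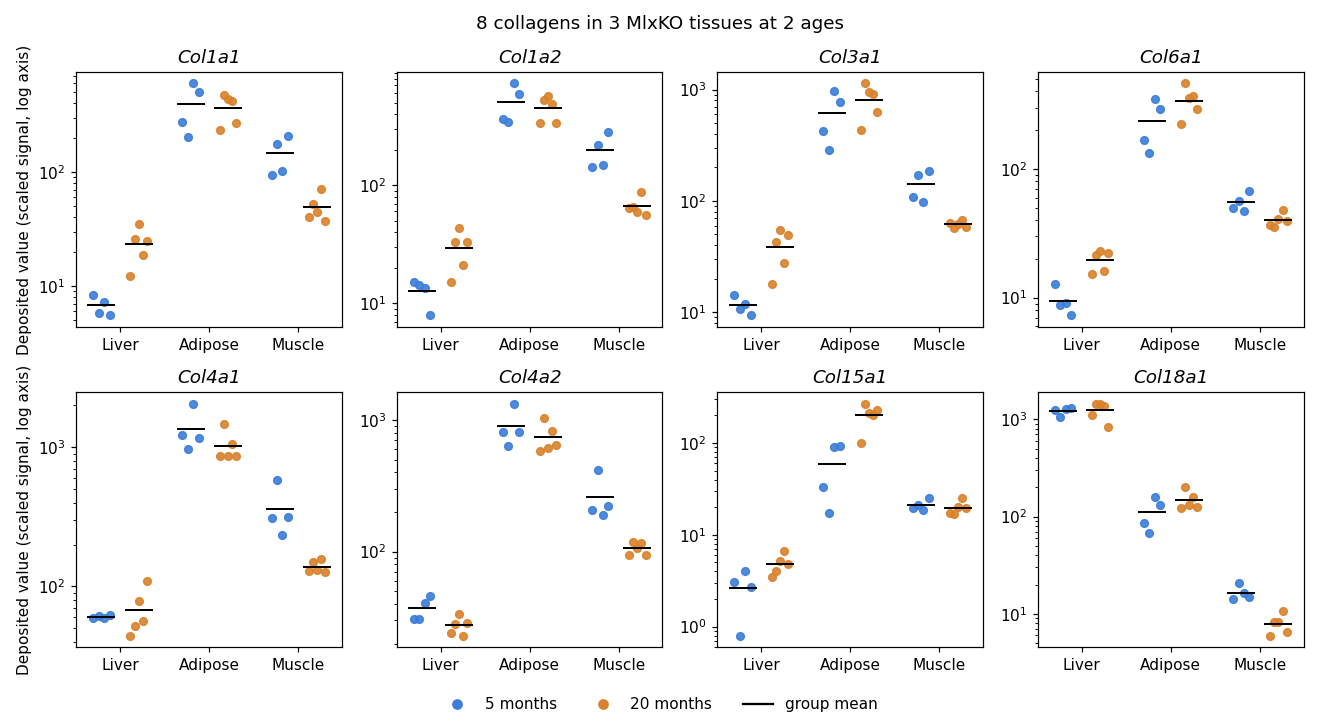
Deposited values (scaled signal, log axis) of 8 collagens in each library, by tissue and age; points are libraries and black lines group means. *Col1a1*, *Col1a2*, *Col3a1* and *Col6a1* lie higher in old than in young livers on average and lower in old than in young muscles, and *Col18a1* is above 840 in every liver.

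The change at 20 months was set against that of another tissue in 1 fit of all 27 samples, in which 36 collagens passed the filter. Between liver and skeletal muscle it differed for 20 of 36 collagens (55.6%, against 17.5% of 15572 genes), all 20 with the change of liver above that of muscle (background 9.35% above and 8.19% below). The largest differences in log2 change were those of *Col5a2* (4.05, standard error 0.389, limma adjusted p = 5.3e-07), *Col1a1* (3.10, adjusted p = 9.5e-05), *Col3a1* (2.70, adjusted p = 0.000421), *Col5a3* (2.68, adjusted p = 0.000219) and *Col1a2* (2.61, adjusted p = 0.000145). *Col6a1* (1.44, adjusted p = 0.00389) and *Col6a2* (1.61, adjusted p = 0.00541) were also called, and for these 7 genes the change passed upward in liver and downward in muscle. *Col4a1* (1.38, adjusted p = 0.00825) and *Col18a1* (0.97, adjusted p = 0.0241) differed too, and their own change passed in muscle and not in liver. *Col11a1*, *Col22a1* and *Col28a1* were also called but were near 0 in liver, with group means of at most 0.237. On the log2(value + 1) scale their liver change therefore stays near 0. Their calls were lost with edgeR and DESeq2, and that of *Col22a1* also with a pseudocount of 0.1 or 0.5. The adjusted p of those alternatives reached 0.123, 0.368 and 0.0779, in this order. The call of *Col11a2* held in 7 of 9 alternatives, and those of *Col5a1*, *Col8a1* and *Col14a1* each in 9 of 10. The young mice are shared between the tissues.

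Between liver and adipose tissue the change differed for 13 collagens (36.1%, against 15.6%), all 13 with liver above (background 8.59% above and 6.97% below). They included *Col5a2* (2.31, limma adjusted p = 0.000461), *Col1a1* (1.61, adjusted p = 0.0150) and *Col5a3* (1.59, adjusted p = 0.0120) among the fibrillar chains and *Col4a3* (2.49), *Col4a4* (2.67), *Col4a5* (1.17) and *Col4a6* (1.63) of type IV, with adjusted p of 0.000252 to 0.0172. The others were *Col1a2*, *Col27a1*, *Col6a5*, *Col6a6*, *Col8a2* and *Col28a1*, with differences of 0.94 to 2.06. Leaving out 1 sample lost *Col8a2* in 21 of 27 fits, *Col27a1* in 11, *Col1a2* in 8 and *Col28a1* in 5 (limma adjusted p up to 0.106). The calls of *Col6a5* and *Col28a1*, with liver group means of at most 0.232, were lost with a pseudocount of 0.1, edgeR and DESeq2. That of *Col28a1* was also lost with no filter, and the adjusted p of these alternatives reached 0.141 and 0.161. The call of *Col8a2* was lost with either pseudocount, no filter, sample weights, edgeR and DESeq2. That of *Col27a1* was lost with either pseudocount, no filter and edgeR, and that of *Col1a2* with no filter. For these 3 genes the adjusted p of the alternatives reached 0.164, 0.0751 and 0.0625. Between adipose tissue and skeletal muscle 20 differed (55.6%, against 14.7%). In 16 of them the change of fat was above that of muscle (background 8.34%), led by *Col12a1* (2.70, limma adjusted p = 0.000424) and *Col15a1* (2.12, adjusted p = 0.00823). The other 4 (background 6.34%) were *Col4a4* (-1.71), *Col4a5* (-1.23), *Col4a6* (-1.32) and *Col6a5* (-2.02), with adjusted p of 0.00215 to 0.0397. None of these 4 calls held under every alternative: that of *Col4a4* was lost in 13 of the 27 fits that left out 1 sample (limma adjusted p up to 0.0919), and those of *Col4a4*, *Col4a6* and *Col6a5* were lost with a pseudocount of 0.1, with edgeR and with DESeq2 (adjusted p up to 0.138, 0.106 and 0.310), that of *Col4a4* also with no filter. The call of *Col4a5* was lost with sample weights (limma adjusted p = 0.0542). Among the calls with fat above muscle, that of *Col11a2* held in 2 of 9 alternatives and in 16 of the 27 fits that left out 1 sample. Those of *Col4a2*, *Col6a1* and *Col8a1* each held in 8 of 10 alternatives. Over all collagens called, 16 of 20 calls between liver and muscle, 9 of 13 between liver and fat and 12 of 20 between fat and muscle held in all 27 fits that left out 1 sample. *Col11a1*, called at 0.78 between fat and muscle, is near 0 in fat, and its difference turned to -0.019 with a pseudocount of 0.1 and to -1.02 with edgeR and -1.08 with DESeq2. Without the young X5F5001 fat, 12 collagens were called between fat and muscle.

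Levels were then compared between genes and tissues at each age. Per kb of transcript, liver was ruled by a single gene: *Col18a1* stood at 255 ± 23.4 (SD, n = 4) at 5 months, which was 85.0% of the summed collagen level per kb, before *Col4a1* at 9.15 ± 0.254, *Col14a1* at 8.38 ± 1.05 and *Col4a2* at 5.76 ± 1.17. At 20 months *Col18a1* was at 258 ± 54.1 (SD, n = 5) and 76.2% of the sum, and *Col5a2*, at 8.43 ± 2.72, was at rank 5. Below *Col18a1* the neighbours *Col4a1* and *Col14a1* overlapped in range in liver at 5 months (8.94 to 9.49 and 7.38 to 9.35). In adipose tissue the first 4 at 5 months were *Col4a1* (206 ± 72.3), *Col4a2* (139 ± 47.0), *Col3a1* (110 ± 56.1) and *Col1a2* (94.3 ± 34.8), and in skeletal muscle they were *Col4a1* (54.4 ± 23.3), *Col4a2* (40.1 ± 16.5), *Col1a2* (37.1 ± 12.2) and *Col3a1* (25.4 ± 8.03). In both tissues the ranges of each with the next overlapped. The muscle order of these 4 was the same at 20 months, at 21 ± 2.19, 16.4 ± 1.80, 12.5 ± 2.31 and 11.1 ± 0.791 (SD, n = 5).

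**Figure D5:**
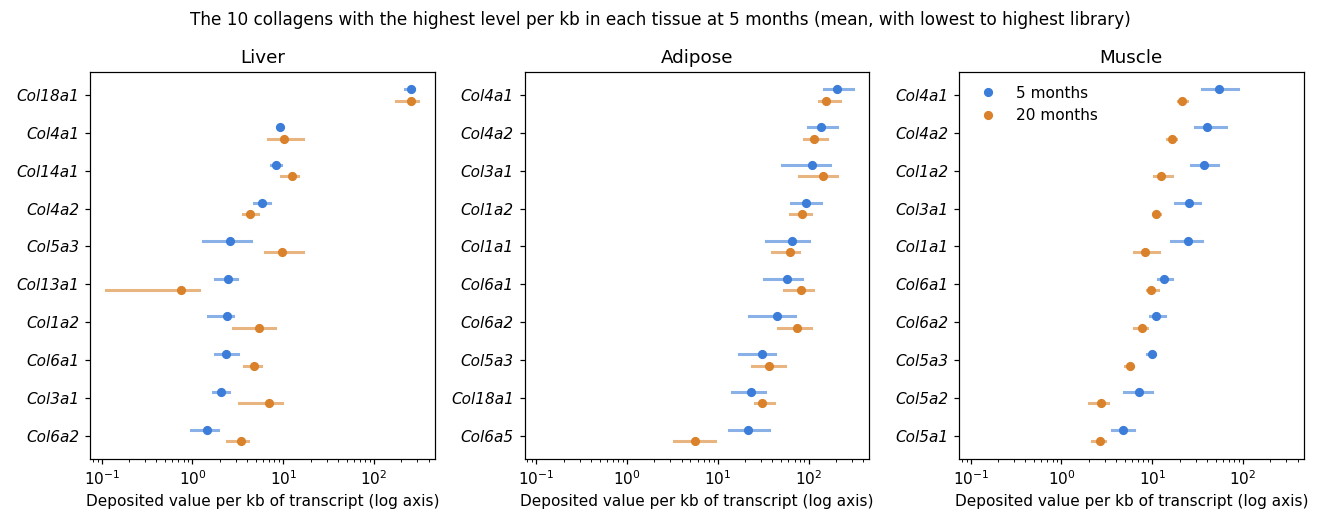
The 10 collagens with the highest deposited value per kb of transcript in each tissue at 5 months, with the mean (point) and the lowest to highest library (bar) at 5 and 20 months on a log axis. *Col18a1* stands alone in liver at 255, while *Col4a1* leads in adipose tissue at 206 and in muscle at 54.4.

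Most collagens differed between tissues, as did most genes, and the shares called between liver and fat at both ages and between liver and muscle at 20 months were close to those of all genes. At 5 months 2 of 36 were higher and 27 lower in liver than in adipose tissue (80.6% called, against 76.4% of all genes, 36.5% higher and 39.9% lower). In liver against muscle 4 were higher and 29 lower (91.7%, against 72.9%, 36% and 36.8%), and in fat against muscle 25 were higher and 9 lower (94.4%, against 72.8%, 41.9% and 30.9%). The 2 that were higher in liver than in fat were *Col18a1* and *Col13a1*. The 9 that were higher in muscle than in fat were *Col7a1*, the anchoring fibril chain, *Col11a1*, *Col11a2*, *Col24a1*, *Col9a1*, *Col12a1*, *Col19a1*, *Col20a1* and *Col22a1*, none of them a chain of types I, III, IV, V or VI. Of these, *Col9a1*, *Col11a1*, *Col19a1*, *Col22a1* and *Col24a1* met the filter of a value of 1 in 4 samples only through muscle. *Col4a6* and *Col6a5* met it only through fat. Genes that enter in this way had to be higher in that tissue, so their calls are not to be read as part of these counts at either age. At 20 months 4 were higher and 24 lower in liver than in fat (77.8%, against 74.5%, 35.7% and 38.8%), 6 and 24 in liver than in muscle (83.3%, against 77.2%, 39.2% and 38.1%), and 24 and 8 in fat than in muscle (88.9%, against 76.0%, 42.1% and 33.9%). *Col5a2* and *Col5a3* were lower in liver than in muscle at 5 months and higher at 20 months, each called at both ages.

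Of the 44 collagens, 23 were tested in all 3 tissues, 6 in 2, 7 in 1 and 8 in none. The 8 were *Col2a1*, *Col9a2*, *Col9a3*, *Col6a4*, *Col10a1*, *Col17a1*, *Col25a1* and *Col26a1*. *Col10a1*, a collagen of growth plate cartilage, reached at most 0.179, which was 6 reads. *Col2a1*, the main cartilage collagen, was at 0 in all livers and reached 4.19 and 3.97 in the young muscles X5S5001 and X5S5239, against 1.31 and 0.783 in the other young and at most 0.955 in the old muscles. *Col17a1*, which anchors the basal cells of skin, was 18.2 in the old muscle X18S60, the library that held *Krt5*, and at most 0.539 in the other 26 samples. No collagen was under 0.1 in every sample.

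Other genes of collagen biology are given by lists, whose counts are to be read against the 10% higher and 9.79% lower of all genes tested in liver, 9.75% and 9.35% in fat and 9.13% and 10.1% in muscle. Of the enzymes and chaperones of chain modification and folding, 2 of 17 were higher and 2 lower in old liver, among them *Serpinh1*, the collagen chaperone HSP47 (log2 change 0.78, limma adjusted p = 0.0120), and *P3h3* (0.67). In muscle 1 of 18 was higher, *P4hb* (0.35), and 3 lower, *Plod2*, a lysyl hydroxylase of telopeptides (-0.90, limma adjusted p = 0.0195), *P3h3* (-0.55) and *Plod1* (-0.45). In adipose tissue 1 of 17 was higher, *Plod3* (0.69), and 1 lower, *Plod2* (-0.48). The median log2 change of this list was 0.06 in liver, 0.19 in fat and -0.20 in muscle.

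Of the genes of propeptide removal and crosslinking, 3 of 10 were higher in liver, *Loxl1*, a lysyl oxidase (log2 change 1.23, limma adjusted p = 0.0119), and the procollagen enhancers *Pcolce* (0.90) and *Pcolce2* (0.90), and 0 lower. In muscle 7 of 12 were lower, led by *Lox*, the founding lysyl oxidase (-1.77, limma adjusted p = 0.00783), *Adamts2*, which removes the N-propeptide (-1.30, adjusted p = 0.00298), *Loxl4* (-0.84) and *Loxl3* (-0.79), and 0 higher. In fat 1 of 13, *Pcolce2* (1.09), was higher. The medians were 0.47, -0.49 and 0.02 in liver, muscle and fat.

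Of the fibril partners, 5 of 11 were higher in old liver, with *Lum* (1.44, limma adjusted p = 0.00775), *Fmod* (1.11), *Tnc* (1.02) and *Tnxb* (0.78) the largest, and 7 of 11 lower in old muscle, with *Fn1* (-1.41, limma adjusted p = 0.00375), *Fmod* (-1.15), *Eln* (-1.03) and *Tnxb* (-0.86). In fat *Eln* (-1.39) and *Fmod* (-1.25) were lower and 0 higher. Of the laminins, nidogens and heparan sulfate proteoglycans of the basement membrane, 0 of 15 were called in liver by limma (1 lower at an unadjusted p under 0.05), 4 of 15 were lower in fat (among them *Lama1*, -1.67, *Lama5*, -1.28, and *Lamb2*, -0.65) and 5 of 14 lower in muscle, among them *Lamc1* (-1.04), *Nid1* (-0.74) and *Lama2* (-0.57).

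The counts of the collagen receptors and of the TGF-beta axis were small. Of the receptors, 1 of 7 was higher in liver and 2 lower, *Mrc2*, the endocytic receptor (0.997), *Itga1* (-0.68) and *Itgb1* (-0.43). In fat 2 of 8 were higher, *Lair1* (1.91), a receptor of leukocytes, and *Mrc2* (1.75). In muscle 1 of 7 was higher, *Itga1* (0.65), and 2 lower, *Itga10* (-0.98) and *Ddr2* (-0.62). The TGF-beta axis, the best known inducer of fibrillar collagen, gave in liver *Tgfb1* (0.77) and *Ltbp3* (0.74) higher and *Smad4* (-0.43) lower of 14 tested, in fat *Tgfb1* (0.86) higher and *Ctgf* (-1.25), *Tgfb2* (-0.81) and *Smad4* (-0.37) lower of 15, and in muscle 3 lower of 14, among them *Tgfbr2* (-0.64) and *Ltbp1* (-0.55). In liver *Ctgf* had a log2 change of -1.40 and did not pass (limma adjusted p = 0.0565). The part of this axis in the collagen values was not tested.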

How the data were processed

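RNA-seq of poly(A) RNA (directional libraries) was available for 27 samples, 4 at 5 months and 5 at 20 months in each of 3 tissues. The authors made gene expression tracks with CLC Genomic Workbench and deposited them as a table headed CPM, in which each sample had been divided by a further factor, so that its unit is a scaled signal. The genome used in CLC and whether strand was used in counting are not given in the sources used here, so reads where *Col4a1* meets *Col4a2*, or *Col4a3* meets *Col4a4*, may not be told apart. The submitters' processing notes name GRCm38.p6. The design had assumed CPM, and its tests were kept. Dividing by the smallest step of each sample made 100% of values whole (within 0.1 read), which gave the reads. Of 48 pairs of replicates 0 were identical, with chi-square over degrees of freedom of 9.21 or more. No columns of other samples were present (0).

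Ages were compared within a tissue, and tissues and the difference in age change in 1 fit of 27 samples, by limma 3.58.1 (R 4.3.3) with a variance trend on log2(value + 1), which understates changes of low genes. Genes reaching a value of 1 in 4 or more samples were tested, p-values were adjusted over all of them by Benjamini and Hochberg, and 0.05 was the threshold. Where nothing else is said, "higher" and "lower" refer to 20 months. Levels per kb divide by the longest principal transcript of GENCODE M21. The 5-month tissues come from the same 4 mice, whose deviations from the group mean correlated at -0.02 to 0.29 between tissues (mean 0.136), and the mouse as a block was an alternative. The 20-month samples were treated as separate mice. Further alternatives changed the pseudocount (0.1 or 0.5), the filter (none, or a mean of at least 5), the scaling (median of ratios, or leaving out the 20 most abundant genes) or the samples (weighted, each left out, or all 27 fitted for a tissue), or used edgeR 4.0.16 or DESeq2 1.42.0 with the recovered reads. The scripts were tested on simulated data.

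Values in every sample are given for up to 8 called collagens per tissue with the smallest adjusted p and for a set of 8 kept the same in all tissues. Every collagen called between ages in a tissue is named, as are up to 4 genes of each pathway list. Some genes of these lists are not reported here by name. The members and lists were chosen with earlier results of these data known. Lists of epithelial, skeletal and kidney markers were added after seeing the values.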

Additional observations from a re-analysis of the deposited data

Results flagged for a closer look

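In 82 groups of 4 or 5 samples, 5 held 1 sample far from the rest by Dixon's test. The groups were those of the collagens called between ages in a tissue, and those of *Col17a1* in muscle. *Col17a1* was tested in no tissue and was added by choice, so the count of 5 cannot be set against chance. *Col12a1* was 24.1 in the young fat X5F5238, where the next highest was 12.05. *Col4a3* was 5.42 in the old fat X18F36, against 1.64, and this library also had the highest *Epcam* of the old fat samples. *Col4a2* was 417 in the young muscle X5S5001, against 222, the library with the highest *Ibsp*. *Col8a2* was 2.87 in the old muscle X18S59, against 1.63. *Col17a1* was 18.2 in the old muscle X18S60, against 0.289, the library that held *Krt5*. The part of other tissue in these values was not tested.

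For 10 differences in age change between tissues, the interaction was tested in the fit of 27 samples and passed, with changes called in opposite directions. Between liver and muscle they were those of *Col5a2* (4.05, limma adjusted p = 5.3e-07), *Col1a1* (3.10, 9.5e-05), *Col3a1* (2.70, 0.000421), *Col5a3* (2.68, 0.000219), *Col1a2* (2.61, 0.000145), *Col6a2* (1.61, 0.00541) and *Col6a1* (1.44, 0.00389). Between fat and muscle they were *Col12a1* (2.70, 0.000424) and *Col16a1* (2.09, 0.000541), and between liver and fat *Col4a4* (2.67, 0.00254). Some of the age calls behind these were lost with 1 sample left out: of the 9 fits of a tissue that left out 1 sample, the liver call of *Col4a4*, a gene that entered the test only through the old livers, was lost in 8 and its fat call in 7, and the fat calls of *Col12a1* and *Col16a1* were lost in 6 each.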

How the results depend on the processing

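The counts of collagens higher in old liver and lower in old muscle stayed within 1.5 times under other pseudocounts, filters, scalings, weights, tools and left-out samples, and those of fat varied. In liver, 0 collagens were lower with a mean of at least 5 and 2 with sample weights, against 1. In fat, against 3 higher and 6 lower, 1 was higher without a filter, 11 with sample weights and 7 with all 27 samples in 1 fit. Leaving out 1 fat sample gave 0 to 4 higher (4 without X18F36) and 2 to 9 lower. Of the alternatives chosen after seeing the data, leaving out the fat samples with *Epcam* and using epithelial markers as a covariate each gave 0 higher and 0 lower in fat, and fibroblast markers as a covariate gave 0 lower in muscle, with *Col6a2* turned to 0.088 and *Col8a2* to 0.12. The difference in age change between liver and fat was called for 8 collagens with a mean of at least 5, against 13. Leaving out 1 sample gave 12 to 23 between fat and muscle, against 20. *Col11a1*, 0.78 between fat and muscle, was -0.019 with a pseudocount of 0.1, -1.02 by edgeR and -1.08 by DESeq2. Causes were not tested, except that a higher filter removes genes.

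Replicate block: with the mouse as a block, 15, 20 and 21 collagens differed in age change between liver and fat, liver and muscle, and fat and muscle, against 13, 20 and 20, and the counts between tissues were 29, 33 and 34 at 5 months and 28, 30 and 32 at 20 months, as without it. Scaling without the 20 most abundant genes moved the median log2 change of all genes in liver to 0.16. Values under 3 reads cannot be told from 0.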
